A study of Canis lupus familiaris with 59 samples.

Results

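This section describes 100 of the 28570 genes measured in adrenal tissue of dogs: genes with almost no transcripts in most cortisol-secreting adrenocortical tumours and a high level in a few. Levels are in CPM, a gene's share of all counts of its library times 1000000. A gene qualified when its median count over the 49 tumours was 1 or less and no library held 10000 or more counts of it, which 11379 genes met. The limit on large counts removed 0 of them, so the median and the rank alone decided. The 100 genes with the highest level in any one tumour were then taken. The tumour values therefore chose the genes, and their high levels in tumours are a description and not a finding. The last gene taken reached 29.8 CPM and the first gene left out 29.5 CPM. The median count was 0 for 44 of the 100 genes and 1 for 56. Another 61 genes with a median above 1 and up to 2 also reached the level of the last gene taken, up to 594 CPM, and were left out by the median.

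The 2 groups were 49 tumours labelled as cortisol-secreting adrenocortical tumours and 10 normal adrenal cortices labelled as healthy, all from dogs and all sequenced with CEL-Seq2. In this method each transcript is tagged near its 3′ end with a molecular identifier, so that copies made by amplification are counted once. The labels give no age, sex, breed, treatment, tumour subtype or batch, and do not state that each library came from another dog. Libraries are called by their group and number in the labels, as tumour 18 or normal 8. Genes are called gene 1 to gene 100 in the order of their highest tumour level. The files and the reference used here pair 0 of the identifiers with a gene symbol, so the genes' functions, the defining markers of adrenal cortex and the other genes of any pathway were not analysed here. Identifiers are given for only 4 genes, 2 with a higher mean in tumours and 2 with a higher mean in normals.

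The adrenal cortex is the outer layer of the adrenal gland and produces steroids such as cortisol, under control of a pituitary hormone. A cortical tumour that releases cortisol escapes this control and is one cause of Cushing's syndrome in dogs. A tissue keeps many of its genes near silence, namely those that serve other tissues or stages of life. Here RNA of whole samples was sequenced, so a larger number of cells of one type and more RNA per cell cannot be told apart in any result below.

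Library totals lay between 1007920 and 5449077 counts, so 3 counts, the limit that a count of 0 allows, came to between 0.551 and 2.98 CPM. A count was present for 16766 to 22158 genes of the whole table per library. All 1711 pairs of libraries differed by more than sampling noise (lowest chi-square over degrees of freedom, 4.12). Tumour 18 stood apart beyond the 100 genes. It had 3256834 counts, rank 5 in depth of the 59 libraries, and 22020 genes with a count, rank 2. Among 8041 genes with a median count above 1, no value of 10000 or more and a highest tumour level at or above that of gene 100, 1295 (16.1%) were highest in tumour 18, and the next tumour, number 33, held 783. These 2 tumours also had the largest TMM scaling factors, 1.23 each, by which the CPM used here were not divided. No recount on TMM sizes is given for genes outside the set.

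The 100 genes were not evenly spread over the tumours. Tumour 18 held the highest level of 51 genes, tumour 29 of 8, tumours 3 and 35 of 6 each, tumour 31 of 5, and tumours 25, 27 and 28 of 4 each. Tumours 11, 13 and 36 held 2 each and a further 6 tumours 1 each, so 17 tumours held all peaks and 32 held none. Outside the set the share of tumour 18 was lower and still large. Of the next 100 genes in the ranking, whose highest levels ran from 17.2 to 29.5 CPM, 38 were highest in tumour 18. Of all 751 near silent genes outside the set that reached 5 CPM, 209 (27.8%) were.

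**Figure D1:**
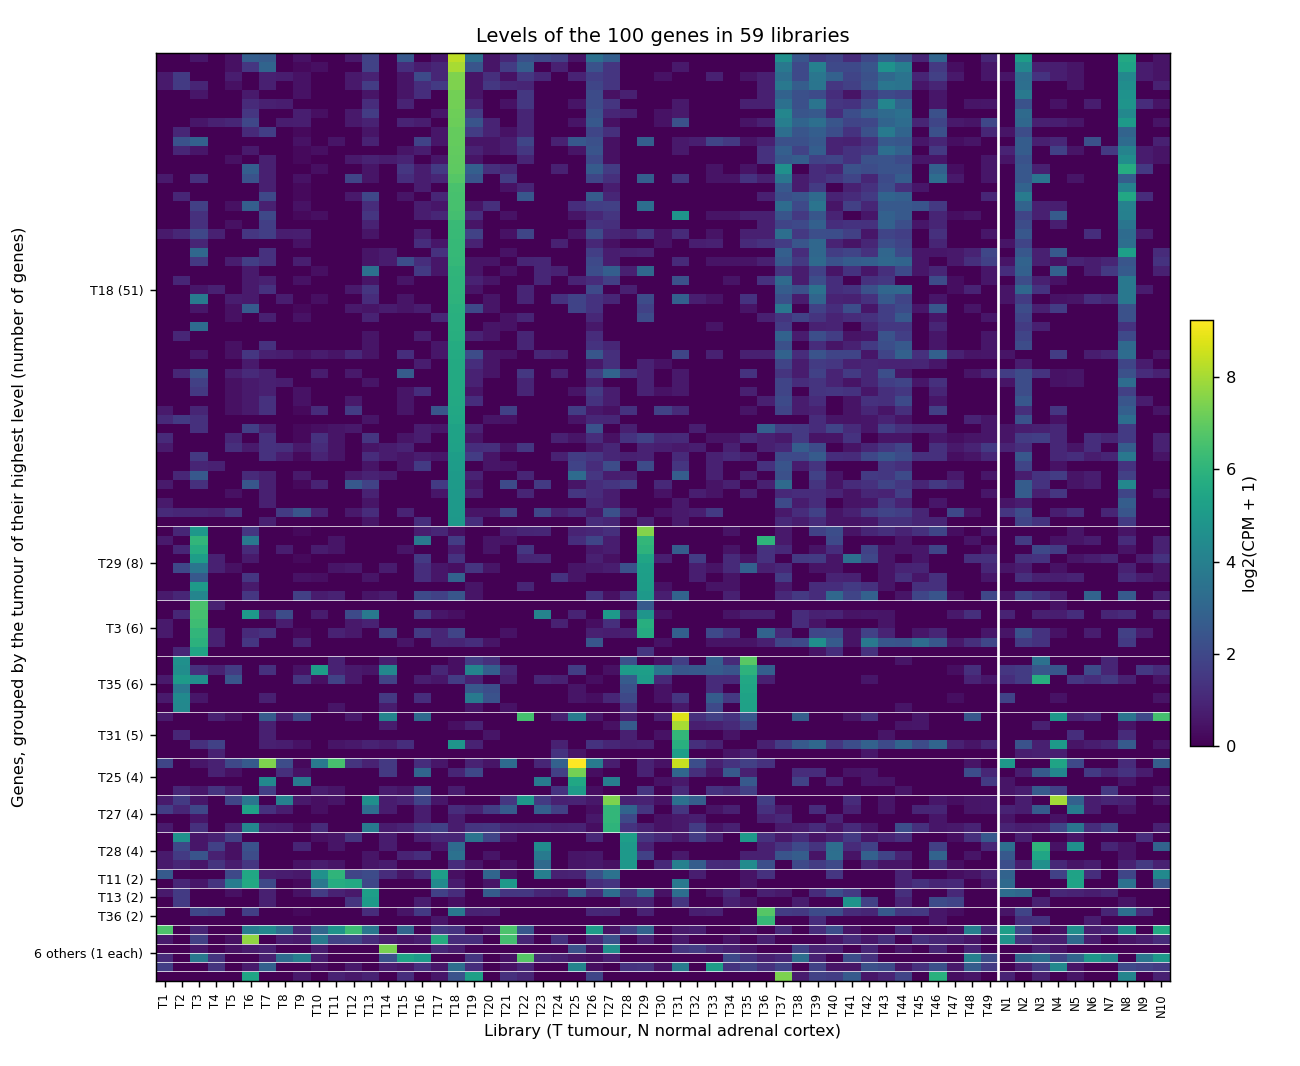
Levels of the 100 genes (rows, as log2 of CPM + 1) in the 49 tumours and 10 normals (columns, parted by the white line), with rows grouped by the tumour of the highest level. The bright column at tumour 18 covers 51 genes, and fainter columns over the same rows are seen at tumours 37, 39, 43 and 44 and at normals 2 and 8.

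A gene was called raised in a library at 10 CPM or more. Over all genes and tumours there were 220 such gene-tumour pairs. In exactly 1 tumour 47 genes were raised, in 2 tumours 29, and in 3 or more 24, with a maximum of 9 tumours for gene 27. Per tumour, 0 to 53 genes were raised (median 3), and 10 tumours had none. Near silence did not mean a strict zero elsewhere: a gene had at least 1 count in 3 to 41 of the tumours (median 25). Depth did not order these counts. The deepest library, tumour 9, had 2 genes raised. The 10 deepest tumours had 0 to 53 genes raised (median 2), and the 10 shallowest 0 to 13 (median 3).

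**Figure D2:**
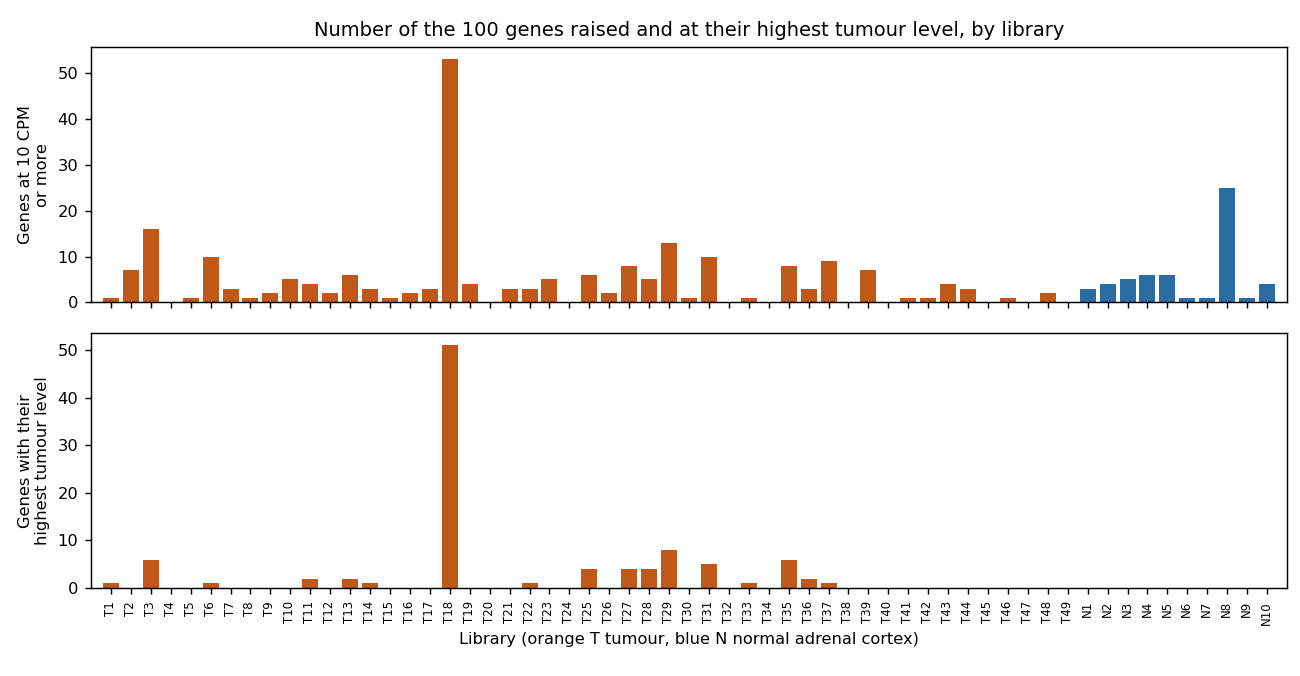
Number of the 100 genes at 10 CPM or more (upper bars) and number with their highest tumour level (lower bars, not defined for normals) in each library, tumours in orange and normals in blue. Tumour 18 has 53 and 51, and normal 8, with 25 genes raised, exceeds every tumour but tumour 18.

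The distance from the highest tumour to the next varied from gene to gene. The exact (Clopper-Pearson) 95% intervals of the 2 tumours did not overlap for 87 genes. These intervals cover counting error only. The rule ranked genes by this highest value, so the 87 is a description and nothing is read from it. No such number is given for genes outside the set. The ratio of the highest to the next tumour was 6.81 for the median gene. It was at least 5 for 61 genes and under 1.5 for 13. Gene 44 had the largest ratio, at 69.1. It stood at 68.6 CPM in tumour 31 (122 counts, 95% interval 56.97 to 81.9) and at 0.992 CPM in tumour 2, the next. The latter was 1 count (95% interval 0.0251 to 5.53), so the size of the ratio is poorly known. Gene 37 was similar, with 72.3 CPM in tumour 36 and 1.23 CPM (3 counts) in tumour 39, and had a count in only 4 tumours. Its normals ran from 0 to 1.53 CPM. At the other end, gene 27 had 101 CPM in tumour 1, 97.9 in tumour 21 and 80.5 in tumour 12. The 95% intervals of tumours 1 and 21 overlapped.

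The 51 genes with their peak in tumour 18 made up the largest group. Their level in tumour 18 ran from 29.8 to 319 CPM (median 63.6), from 97 to 1039 counts, and in the next tumour from 1.37 to 26.4 CPM (median 7.40). For 47 of them tumour 18 was at least 5 times above the next tumour. For 44 of them it held more than 50% of the level summed over all tumours. In exactly 1 tumour 36 of the 51 were raised, and 4 were raised in 3 or more.

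Gene 3 (ENSCAFG00000018744) was the highest of this group. Its levels in tumours ran from 0 to 319 CPM with a median of 0.488, and in normals from 0 to 46.3 CPM with a median of 0. Tumour 18 held 1039 counts of it (95% interval 299.9 to 339 CPM), the next tumour, number 37, held 23.2 CPM, and all further tumours were under 10 CPM. In 7 of the normals gene 3 had no count, while normal 8 held 46.3 CPM, normal 2 held 34.5 CPM and normal 10 held 0.396 CPM. Tumour 18 was above all normals and every other tumour was below normal 8.

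Gene 5 reached 258 CPM in tumour 18. It stood at 25.5 CPM in tumour 43, 15.2 in tumour 39, 14.5 in tumour 44 and 11.9 in tumour 37, and no other tumour was raised. Normal 8 held 39.9 CPM and normal 2 held 18.3, and the other 8 normals lay between 0 and 0.764 CPM. Genes 8 and 10 followed the same libraries. Gene 8 had 174 CPM in tumour 18, 19.0 in normal 8, 11.5 in tumour 39 and 10.5 in tumour 44. Gene 10 had 173 CPM in tumour 18, 22.1 in normal 8, 11.9 in tumour 37 and 11.4 in tumour 43. For genes 3, 5, 8 and 10, every raised level outside tumour 18 lay in normal 2 or 8 or in tumour 37, 39, 43 or 44.

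The normals did not enter the ranking, so they show levels that the choice of genes did not set, other than through the limit of 10000 counts. Normal 8 was the highest normal for 41 of the 51 genes. It was the second highest of all 59 libraries for 29 of them and among the 5 highest for 44. It held a count of all 51 genes and 22 were raised in it. Normal 2 was the highest normal for 7 of the 51 genes, had a count for 50, and 4 were raised. Of the 51 genes, gene 22 had the highest level in any normal: it had 124 CPM in tumour 18, 51.8 in normal 8 and 23.7 in tumour 37, and 0 to 4.74 CPM in the other normals. For the other 49 genes normal 8 was the highest normal in 3 cases and normal 3 in 12. No such share is given for genes outside the set. Whether normal 8 is often the highest normal across the whole table is therefore not shown.

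Summed over the 51 genes, the level was 4283 CPM in tumour 18 (95% interval 4212 to 4355), 670 CPM in normal 8 (638 to 702) and 267 CPM in normal 2. The other 8 normals lay between 8.86 and 41.4 CPM. After tumour 18, the tumours with the highest sums were number 37 with 305 CPM, number 43 with 240 CPM, number 39 with 219 CPM, number 44 with 203 CPM and number 26 with 121 CPM. Tumours 37 to 46 are a run of consecutive numbers that an earlier analysis of these data had singled out. The labels do not set them apart from the other tumours, and whether they are alike is not shown here. Their sums ran from 19.4 CPM in tumour 45 to 305 CPM, with a median of 98.7. In the 38 tumours outside this run and other than tumour 18 they ran from 2.53 to 121 CPM, with a median of 17.5. All 10 tumours of the run were above that median and 4 were above the highest of the 38, so the ranges overlapped. No test is given, since genes and run were both chosen on these libraries. Genes of the whole table with a count numbered 18711 to 22158 in the run, 18459 to 20734 in tumours 27 to 36 and 16766 to 22020 in tumours 1 to 26 and 47 to 49. The labels name no common handling of these libraries, and whether one bears on the sums was not tested.

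**Figure D3:**
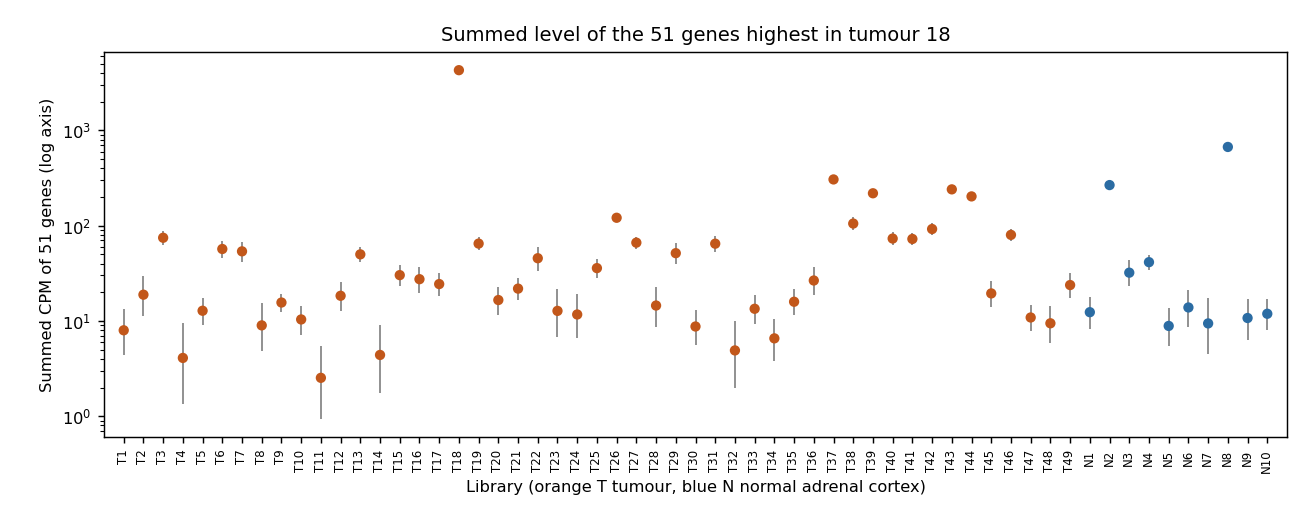
Summed CPM of the 51 genes with their peak in tumour 18, in each library on a log axis, tumours in orange and normals in blue, with exact 95% binomial intervals for counting error as grey lines. Tumour 18 stands at 4283 CPM, normal 8 at 670 CPM, and tumours 37 to 46 lie between 19.4 and 305 CPM.

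The 51 genes also kept part of their order from library to library. Across the 51 genes, Pearson's r of log2(CPM + 1) with tumour 18 was 0.73 in normal 8, 0.75 in tumour 43, 0.71 in tumour 37 and 0.69 in normal 2. It was -0.14 in tumour 3, -0.09 in tumour 31 and 0.04 in tumour 9. These values are across genes, which are not independent replicates, and are given as a description. The level in normal 8 as a share of that in tumour 18 was 13.0% for the median gene, with quartiles of 6.96% and 17.9% and extremes of 2.85% and 58.8%. For tumour 37 the median share was 5.90%, for normal 2 it was 5.49% and for tumour 43 it was 5.05%. With tumour 18 left out, the r of 2 genes over the 58 remaining libraries had a median of 0.60 over all pairs of the 51 genes, and 0.53 when normal 8 was left out as well. Over all pairs of the other 49 genes, which have their peaks in several tumours, the median was 0.01 in both cases. Some of these pairs do share a peak tumour, and over the 58 libraries their r ran from -0.35 to 0.92. The medians thus set a group with a shared peak beside a mix of smaller groups. The libraries share differences in depth across all genes, and many values are zero.

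Genes 1 to 3 were compared, over the 59 libraries, with the 13134 genes outside the set that reached 10 CPM in any library. For gene 3 the 2 closest genes had an r of 0.91 and 0.88, and 0.88 and 0.85 without tumour 18. Both were highest in tumour 18, with 516 and 504 CPM, at median counts over tumours of 2 and 3, and held 96.1 and 70.0 CPM in normal 8. They thus lay outside the set by the limit on the median alone. For gene 1 the closest gene had an r of 0.65 and for gene 2 an r of 0.58.

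The second group were 14 genes highest in tumour 3 or tumour 29. These 2 tumours had 2076826 and 1205684 counts, ranks 32 and 55 in depth. In 10 of the 14 genes both tumours were raised, and in 11 both stood above all 57 other libraries. The next highest tumour was the other of the pair for 11 genes. In 3 of the 14 genes a library outside the pair reached 10 CPM. No normal was raised for any of the 14, and the highest normal level was 6.59 CPM.

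**Figure D4:**
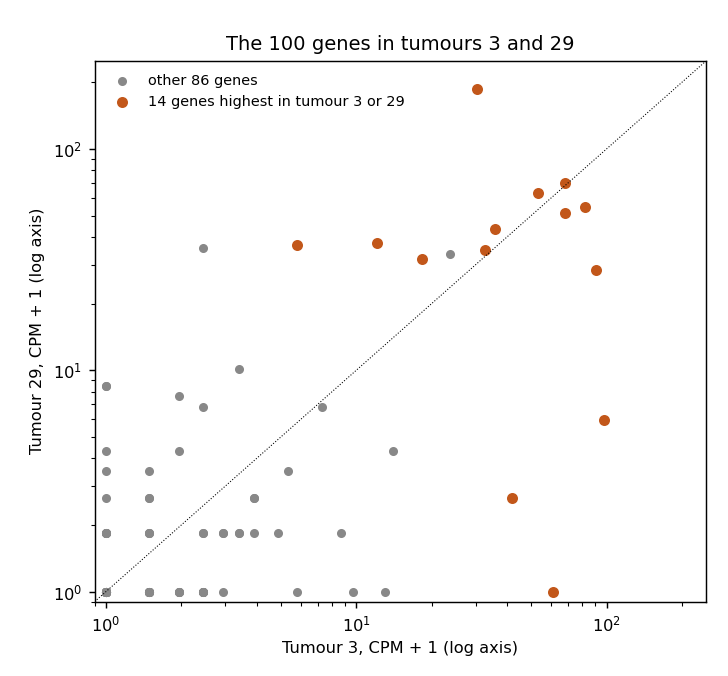
Level of each of the 100 genes in tumour 3 (horizontal) and tumour 29 (vertical), as CPM + 1 on log axes, with the line of equal levels dotted. Of the 14 genes highest in one of these tumours (orange), 10 are at 10 CPM or more in both.

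Gene 7 had the highest level of this group. It stood at 185 CPM in tumour 29 (223 counts, 95% interval 161 to 211) and 29.4 CPM in tumour 3. In the other tumours it was at 3.57 CPM or less and in normals between 0 and 0.443 CPM. Gene 34 had 80.9 CPM in tumour 3 and 53.9 CPM in tumour 29, at most 1.35 CPM in any other tumour, and no count in any normal. Gene 52 had 62.2 CPM in tumour 29 and 52.0 CPM in tumour 3, and its next level was 5.62 CPM in tumour 31. The pair shared these 3 genes while the other libraries remained low.

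Not every gene of the group was shared by the pair. Gene 28 had 96.8 CPM in tumour 3 (201 counts) and 4.98 CPM in tumour 29. Of the other libraries, only tumour 4, with 0.818 CPM, and normal 4, with 0.354 CPM, had any count of it. Gene 43 was held by 3 tumours at like levels, 68.8 CPM in tumour 29, 66.9 in tumour 3 and 63.5 in tumour 36. Gene 32 was raised in 6 tumours, with 90.04 CPM in tumour 3, 30.8 in tumour 27, 30.4 in tumour 6 and 27.4 in tumour 29, and its normals lay between 0 and 1.33 CPM.

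The third group were 6 genes highest in tumour 35. All 6 were also raised in tumour 2, where the level was 20.3% to 68.8% of that in tumour 35, with a median of 42.0%. Tumour 2 was the shallowest library. All 7 genes raised in tumour 2 were among the 8 raised in tumour 35, which is 100% of the first list and 87.5% of the second. Gene 23 led the group with 117 CPM in tumour 35 (302 counts, 95% interval 104 to 131) and 23.8 CPM in tumour 2. Its next tumour held 5.92 CPM, and its normals ran from 0 to 9.93 CPM, the latter in normal 3. Gene 51 was spread more widely, with 62.4 CPM in tumour 35, 34.8 in tumour 29, 34.4 in tumour 10, 33.6 in tumour 28 and 21.8 in tumour 2. It was raised in 8 tumours and in no normal.

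Tumour 28 held the peak of 4 genes, and normal 3 held 3 of them at 10 CPM or more. Summed over the 4 genes the level was 127 CPM in tumour 28, 131 CPM in normal 3, 52.7 CPM in tumour 35 and 42.2 CPM in tumour 23. The like sums of tumour 28 and normal 3 came from unlike proportions of these genes. The 3 genes raised in normal 3 were raised in tumour 28 too. Gene 93 was higher in normal 3, while gene 82 had no count there. Gene 82 had 35.1 CPM in tumour 28, 31.0 in tumour 35 and 24.8 in tumour 2, and at most 1.26 CPM in any normal.

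Tumours 31 and 25 held the 2 highest levels of the set. Gene 1 (ENSCAFG00000029000) stood at 604 CPM in tumour 25 (1383 counts, 95% interval 573 to 637), the largest count of any of the 100 genes. It also stood at 354 CPM in tumour 31, 176 in tumour 7 and 93.9 in tumour 11, and 6 tumours in all were raised. Over tumours it ran from 0 with a median of 0.789 CPM, and over normals from 0 to 41.0 CPM with a median of 0.593. Normal 4 held 41.0 CPM, normal 1 held 29.1, and 5 normals had no count, so the groups overlapped and 4 tumours exceeded all normals. Gene 2 had 441 CPM in tumour 31 (785 counts), 91.01 in tumour 22 and 16.9 in tumour 14. Normal 10 held 90.7 CPM of it, normal 4 held 29.3 and normal 8 held 10.7. Of the 6 genes raised in normal 4, 4 were raised in tumour 25 and 4 in tumour 31. Gene 4 lay apart from these, with 263 CPM in tumour 31 (467 counts) and 5.34 CPM in tumour 28. Its normals ran from 0 to 0.764 CPM, and tumour 31 held 94.8% of its level summed over tumours.

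The remaining genes showed further sets of libraries that recurred. Of the 8 genes raised in tumour 27, 5 were also raised in tumour 6. Of the 6 raised in normal 5, 5 were raised in tumour 6, which had 10 raised genes. Gene 6 had 206 CPM in tumour 6, 87.3 in tumour 21, 51.7 in tumour 17 and 26.5 in normal 1. Gene 60 was raised in 8 tumours, with 51.8 CPM in tumour 11, 47.1 in tumour 6 and 46.4 in tumour 12, and stood at 40.3 CPM in normal 5. Gene 27 was raised in 9 tumours and 4 normals, up to 47.9 CPM in normal 10. Tumours 37 to 46 held the peak of only 1 gene, gene 11, with 169 CPM in tumour 37, 57.3 in tumour 46 and 41.4 in tumour 6. Tumours 27 to 36, another run of consecutive numbers, held 30 peaks, and tumours 1 to 26 and 47 to 49 held 69, or 18 without tumour 18.

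The tumours were not alone in holding these genes, so silence outside a few tumours does not describe all of the set. At least 1 normal was raised for 41 of the 100 genes, and for 22 when normal 8 was left out. A count was present in 0 to 9 of the 10 normals (median 4.5), and 5 genes had no count in any. In 4 genes, genes 9, 68, 93 and 94, the highest of all 59 libraries was a normal. Gene 9 (ENSCAFG00000002907) had 246 CPM in normal 4 and 174 CPM in tumour 27 (513 counts), followed by 28.8 CPM in tumour 22 and 23.1 in tumour 13. The other 9 normals held 0 to 6.20 CPM, with a median over all 10 of 0.668. Gene 93 (ENSCAFG00000012065) had 64.9 CPM in normal 3, 31.3 in tumour 28, 23.9 in normal 5 and 21.6 in tumour 23. Gene 68 had 55.0 CPM in normal 3, 46.1 in tumour 35 and 32.3 in tumour 29. In all 4 a single normal stood above every tumour, and the remaining normals overlapped with the tumours.

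**Figure D5:**
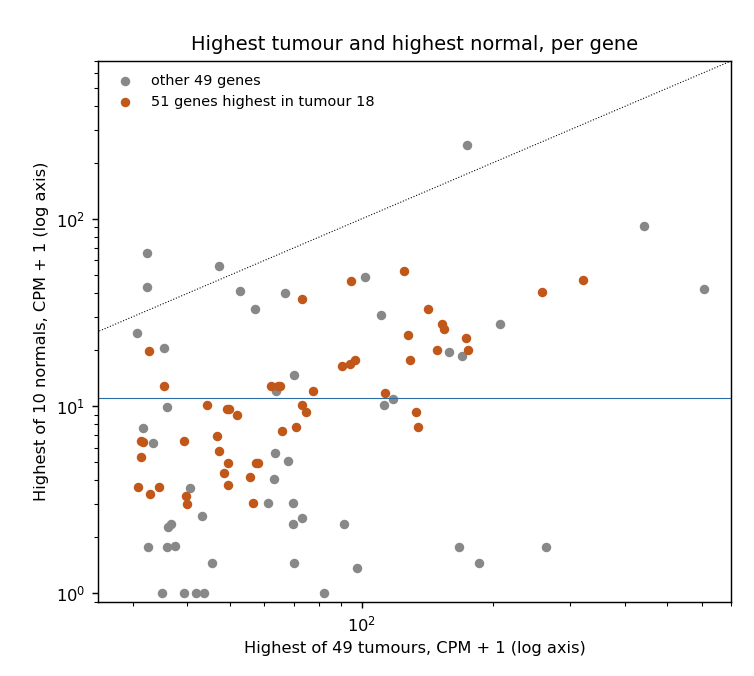
Highest level among the 49 tumours (horizontal) and among the 10 normals (vertical) for each gene, as CPM + 1 on log axes, with equal levels dotted and 10 CPM in normals as a blue line. 41 genes are raised in a normal, and 4 genes, none of them of the 51 highest in tumour 18 (orange), lie above the dotted line.

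Mean levels depended on the peak tumour. The mean over tumours was above the mean over normals for 80 genes, and for 29 when each gene's peak tumour was left out. Among the 51 genes of tumour 18 these numbers were 44 and 5, and among the 14 genes of tumours 3 and 29 they were 14 and 12. The rule chose genes by their tumour values, and leaving out the highest tumour while keeping every normal can lower only the tumour mean. For the 14 genes, the other tumour of the pair stayed in. Nothing is therefore read from any of these numbers. Gene 3 had a mean of 8.81 ± 45.4 CPM (SD, n = 49) in tumours and 8.12 ± 17.2 CPM (SD, n = 10) in normals. Gene 9 had 5.95 ± 25.1 CPM in tumours and 25.6 ± 77.5 CPM in normals.

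The comparison of all tumours with all normals, which the 2 labelled groups imply, called none of the 100 genes. edgeR's quasi-likelihood test ran on 13004 genes with enough counts, of which 8 belonged to the set. At a Benjamini-Hochberg adjusted p under 0.05, 0 of the 8 were higher in tumours, where 0.0846% of all genes tested were, and 0 were lower, where 0.508% were, or 0.592% either way. An unadjusted p under 0.05 was reached by 0 of the 8 with edgeR, and by 12.8% of all genes tested. With DESeq2 it was reached by 1 of the 8, and by 12.4% of all genes tested. DESeq2 called 0 of the 8 and gave no adjusted p for 7. Genes 1, 2 and 3 had log2 fold changes of 1.57 ± 1.22, -0.37 ± 1.01 and -0.08 ± 0.95 (SE), with edgeR adjusted p of 0.62, 0.92 and 0.99. The SE was worked back from the fold change and the F statistic, since the test reports none. With no filter on low counts, edgeR tested all 100 genes among 28570 and again called 0. Of all genes 0.0245% were then called higher and 0.256% lower, together 0.28%. An unadjusted p under 0.05 was then reached by 17 of the 100 genes, 15 higher and 2 lower in tumours, and by 9.36% of all genes. The median log2 fold change was 0.55 over the 100 genes, also with the 5 genes without a count in normals set to their bound at 3 counts over all normals, and 0.08 over all genes. Over the 8 genes that passed the filter the median had the other sign, at -0.41, and was 0.02 over all genes tested with them. Over all genes the calls split into 11 higher and 66 lower, and into 71 higher and 17 lower when library totals alone set the scale. With library totals alone the median over all genes past the filter was 0.18 in place of 0.02. The rule used the tumour values of this contrast, so nothing about the 100 genes is read from these fits. Since nothing states that the libraries came from separate dogs, the p-values measure only the spread between libraries.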

How the data were processed

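RNA of 49 tumours and 10 normal adrenal cortices of dogs was sequenced with CEL-Seq2, per the labels' protocols, which also speak of trypsinized cells and a column kit for total RNA. Per the submitters' processing notes, BWA and the build CanFam3.1 were used. How reads were counted, with which annotation and which filters, is not given in the sources used here. For 28570 genes, the deposited values are estimated counts in a single table, all whole numbers, so they were not rounded. All of them (100%) are rounded values of 4096 times the natural log of 4096 / (4096 - k) for a whole number k, the form of a correction for collisions of molecular identifiers. This was read from the values. The largest value of a member, 1383, then stands for 1174 distinct identifiers. All 59 columns matched 1 sample each and 0 were left over.

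CPM were computed over column sums. The members were chosen by a rule on tumour values, and members, lists and tests were chosen with earlier results of these data known. Genes named in the text are the 10 of highest tumour level, the 3 highest in each tumour among the top in number of peaks (4 tumours, because of a tie), the 5 of highest normal level and the 3 raised in most tumours. Genes 11, 37, 44, 82 and 94 were named after their values were seen. Marker lists need symbols and were not used. Tumours and normals were compared with the quasi-likelihood test of edgeR 4.0.16 in R 4.3.3 (robust F test, TMM, filterByExpr, two-sided, all 59 libraries). DESeq2 1.42.0 served as an alternative. A run of edgeR on simulated counts covered only genes past the filter, with changes of the whole tumour group. It does not bear on genes high in single libraries, and its outcome is not given here. Intervals (Clopper-Pearson, 95%) and the floor of 3 counts cover counting error only. Thinning drew 1007920 counts per library. The labels name no batch, so no batch was tested.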

Additional observations from a re-analysis of the deposited data

Results flagged for a closer look

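Over the 10 normals, 26 measures were examined with Dixon's criterion, the gap to the nearest library over the whole range (limit 0.466 for 10 samples): genes with a count, and on the log2 scale the total count, the summed CPM of the 100 and of the 51 genes, and the CPM of the 22 genes named by the rule, with 1 added to each CPM value. Chance flags about 1 in 20 sets of independent normal values, which near silent genes are not. A library stood apart in 5 measures. On the linear scale it was 14, among them the summed CPM of the 51 genes, where normal 8 had a ratio of 0.61. Normal 4 held 246 CPM of gene 9, against at most 6.20 CPM in the other normals. Normal 8 held 51.8 CPM of gene 22, a gene with its peak in tumour 18, against at most 4.74 CPM. Normal 3 held 9.93 CPM of gene 23 against at most 0.942 CPM, and 55.0 CPM of gene 68 against at most 2.03 CPM. Normal 4 held 0.354 CPM of gene 28, which is a single count where the others had 0.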

How the results depend on the processing

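Counts of raised genes depended on the level that counts as raised. The 220 gene-tumour pairs became 373 at 5 CPM and 75 at 50 CPM. The 47 genes raised in exactly 1 tumour became 22 at 5 CPM, and the 41 genes raised in a normal became 5 at 50 CPM. TMM library sizes, thinning to the lowest total and distinct identifiers kept these counts within 1.5 times, and the 51 peaks in 1 tumour stayed 51 in each. Tumour 18 and normal 8 were left out after the data were seen. Without tumour 18 there were 24 genes raised in exactly 1 tumour, and the most peaks in 1 tumour were 20. The rule applied again without it kept 53 of the 100 genes, with 13 peaks each in tumours 31 and 35. Without normal 8, 22 genes were raised in a normal. A median limit of 0 kept 44 genes, by its construction, and TMM sizes kept 94. Of all genes 77 were called by edgeR and 120 by DESeq2. Calls among the genes of the set were 0 in each direction in all fits, but only the fit with no filter tested all 100. The main fit and the fit without tumour 18 tested 8 of them, and the fit without normal 8 tested 10. Genes that a fit did not test could not be called in it. Whether title numbers pair the libraries was not shown: 5 of 10 same-numbered pairs correlated over 0.1, and 1 tumour and 2 normals correlated best with their own number. In the 20 libraries of the fit with the replicate block 1 of the 100 genes was tested and 0 were called, as without the block. Over all genes the block left 1 call, and the same libraries without it 7. The authors' identifiers could be matched to no symbols, and a gene near 3 counts cannot be told from 0.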
